A study of Mus musculus with 12 samples.

Results

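Serpina3n and 9 other genes that are raised in reactive astrocytes (Gfap, Vim, Lcn2, C4b, Steap4, Osmr, Cp, Cd44 and S1pr3) were followed in mouse striatum across 4 genotypes. They were taken by gene symbol from the 19938 genes that had a probe set with a single symbol on the array. Each of the 10 had 1 such probe set, and all 10 were among the 16721 genes bright enough to be tested. Serpina3n was picked because of its levels in these arrays, so its values are given here as a description with no test. The other 9 were picked as companions known from reactive astrocytes, and the question was whether they followed Serpina3n.

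RNA of whole dissected striatum from male mice aged 90 days was hybridised to 12 Affymetrix whole-transcript arrays, 3 for each genotype. Q111 mice without mGluR5 carried the HdhQ111/Q111 knock-in alleles and were mGluR5-/-. Q111 mice with mGluR5 were HdhQ111/Q111 and mGluR5+/+, Q20 mice without mGluR5 were HdhQ20/Q20 and mGluR5-/-, and Q20 mice with mGluR5 were HdhQ20/Q20 and mGluR5+/+. Hdh is the older name of Htt, the Huntington's disease gene, in which a long CAG repeat (Q111) models the disease and a short one (Q20) is its control, and mGluR5 is the metabotropic glutamate receptor that Grm5 encodes. Every mouse was therefore homozygous for a knock-in Htt allele. The labels give one mixed background (129 * CD-1 * C57BL/6 * FV) for all groups, name no cell type or promoter that limits either allele, and do not state whether each array held RNA of its own animal. The p-values therefore measure only the spread between these arrays, and background alleles that travelled with either locus cannot be told apart from the alleles themselves.

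Astrocytes respond to injury, inflammation and neurodegeneration by changing shape and gene expression, a state called reactive. Its usual signs are more of the intermediate filaments Gfap and Vim, and a set of secreted and membrane proteins that includes Serpina3n, Lcn2, C4b, Cp, Steap4, Osmr, Cd44 and S1pr3, many of them induced by cytokines that signal through the gp130 receptor and the transcription factor STAT3. In mouse brain Serpina3n is not made by astrocytes alone, since some oligodendrocytes in diseased tissue also express it together with C4b and Klk6. In RNA of whole tissue, fewer cells of a type and less RNA per cell cannot be told apart.

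Of the targeted genes, Grm5 followed its label. It lay between 10.93 and 11.17 on the log2 scale in the 6 arrays without mGluR5, against 11.85 to 12.08 in the 6 with it. The labels name repeat lengths of Htt and no level. Htt lay between 9.71 and 9.84 in the 6 Q111 arrays, against 9.86 to 10.05 in the 6 Q20 arrays. Its average difference with the Q111 allele, -0.15 ± 0.06, was not called (limma adjusted p = 0.344). Marker genes of striatal projection neurons, the main neurons of this tissue, averaged 11.38 to 11.56 per array over 10 genes. Astrocyte markers averaged 10.07 to 10.27 per array over 20 genes. The array medians were 7.05 to 7.16, and the interquartile range of each array was 2.56 to 2.95, widest in replicate 2 of all 4 groups. All values below are log2 signals of the authors' RMA table, differences are log2 differences with their standard errors from limma, and levels are compared within a gene, never between genes.

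Serpina3n encodes a secreted inhibitor of serine proteases, the mouse counterpart of human alpha-1-antichymotrypsin. Its probe set read 10.58, 10.61 and 10.45 in Q111 mice without mGluR5 and 8.11, 8.27 and 7.91 in Q111 mice with mGluR5. In Q20 mice without mGluR5 it read 8.88, 9.18 and 8.78, against 7.77, 7.76 and 7.97 in Q20 mice with mGluR5. All 6 arrays without mGluR5 lay above all 6 arrays with it, with a gap of 0.51 between the nearest, and the Q111 mice without mGluR5 lay above every other array by at least 1.26. The Q111 and Q20 mice that kept mGluR5 overlapped. Among all tested genes, arrays lay wholly apart in the same direction in 3.77% for loss of mGluR5 in Q111 mice, 7.89% for its loss in Q20 mice, 6.07% for the Q111 allele in mice without mGluR5 and 0.179% for 6 arrays without mGluR5 against 6 with it, from which nothing is read for a gene chosen by its levels.

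In Q111 mice, Serpina3n was higher by 2.45 ± 0.12 (SE) without mGluR5 than with it, a 5.47-fold difference. In Q20 mice it was higher by 1.11 ± 0.12 without mGluR5, a 2.16-fold difference. The Q111 allele came with a higher level of 1.60 ± 0.12 in mice without mGluR5, which is 3.03-fold, and of 0.26 ± 0.12 in mice with mGluR5, which is 1.20-fold. The mice with both changes were 2.71 above the mice with neither, while the single changes summed to 1.37. The difference left over, the interaction, was 1.34 ± 0.17 with a 95% interval of 0.97 to 1.70. The order of group means was Q111 without mGluR5, Q20 without mGluR5, Q111 with mGluR5 and Q20 with mGluR5, and only the last 2 overlapped. Averaged over both Htt genotypes, the rise of 1.78 ± 0.09 without mGluR5 ranked 1 of 16721 genes. These are the values for which the gene was chosen. Over the alternative ways of processing, the difference in Q111 mice stayed between 2.36 and 2.54, and that in Q20 mice between 0.96 and 1.20.

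**Figure D1:**
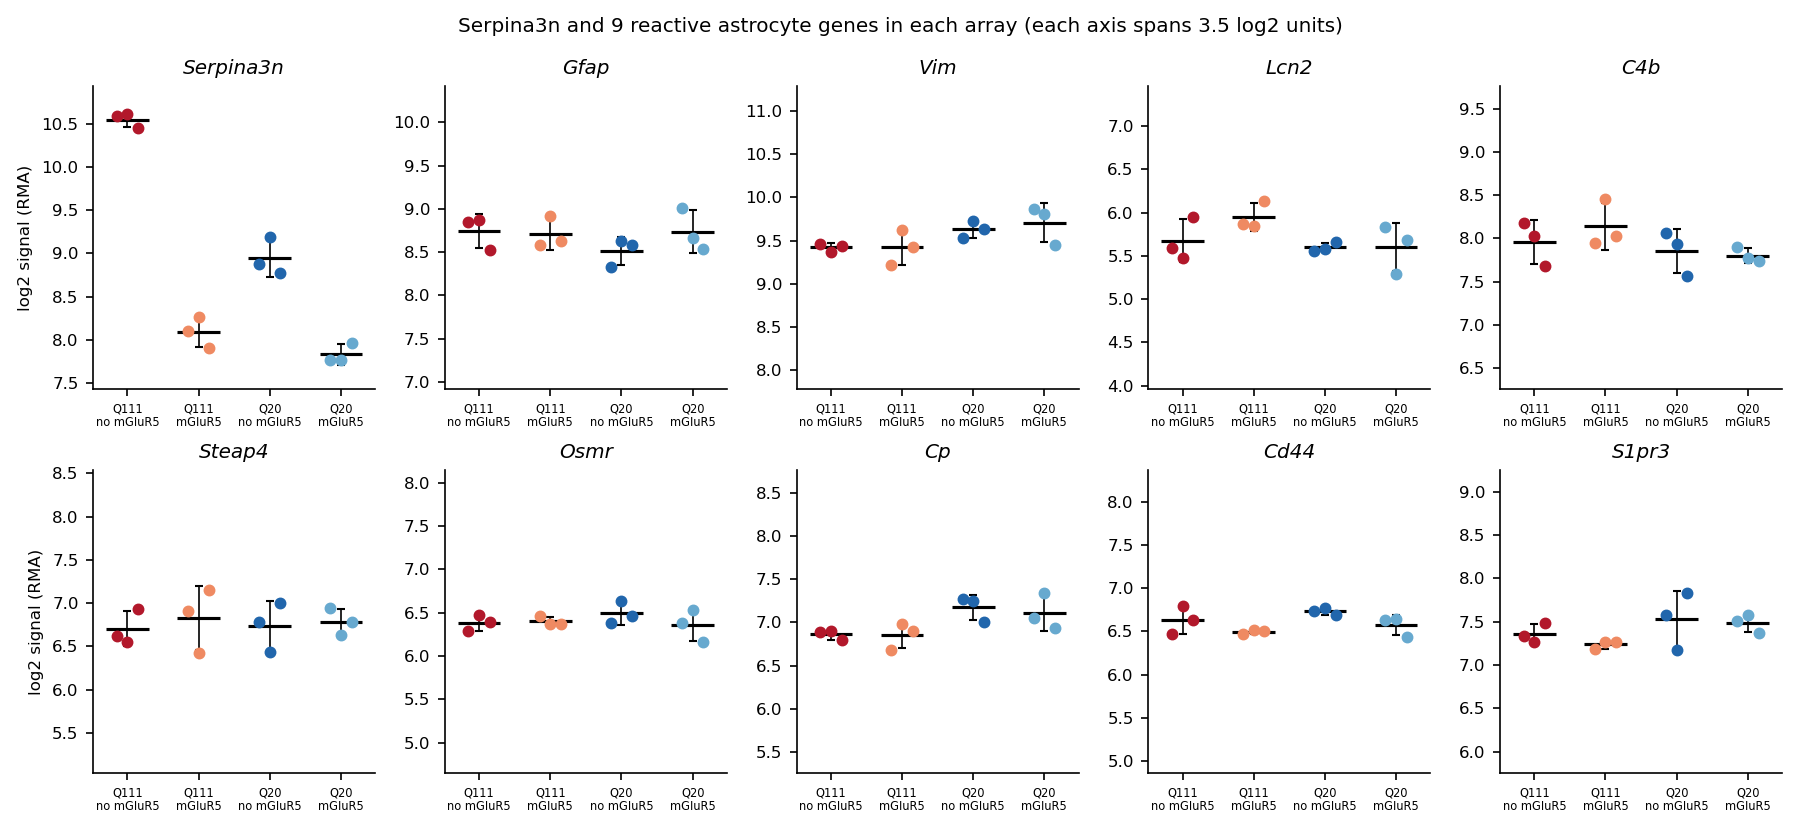
Log2 signal (vertical axes) of the 10 genes in each of the 12 arrays, by genotype, with every point 1 array the horizontal bars group means and the error bars SD (n = 3). Serpina3n lies at 10.45 to 10.61 in Q111 mice without mGluR5 and at 8.78 to 9.18 in Q20 mice without mGluR5, the groups with mGluR5 lie lower and overlap, while the groups of the other 9 genes lie close together.

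None of the other 9 genes passed the test in any of the 7 comparisons. The test was limma's moderated test with Benjamini-Hochberg adjustment over all 16721 genes, and adjusted p had to lie below 0.05 for a call. Among all tested genes the share called was 0.275% for loss of mGluR5 in Q111 mice, 0.299% for its loss in Q20 mice and 0.293% for the average loss. It was 0.885% for the Q111 allele in mice without mGluR5, 0.574% for the allele in mice with mGluR5, 1.32% for the average allele and 0.437% for the interaction. Beside these shares, 0 of 9 is by itself no result about these genes, and the intervals below say more. At an unadjusted p below 0.05 there were 0 of 9 genes for either single loss of mGluR5, 1 for the average loss and 0 for the interaction. The shares of all tested genes were 4.36% for loss in Q111 mice, 6.02% in Q20 mice, 5.32% on average and 5.37% for the interaction. For the Q111 allele there were 1 in mice without mGluR5, 4 in mice with it and 3 on average. The shares of all tested genes there were 9.44%, 6.84% and 11.4%. The 4 were Lcn2 and C4b, which were positive, and Vim and Cp, which were negative. Lcn2 entered the tested genes only through Q111 mice with mGluR5, so its p there supports nothing. An unmoderated linear model called 0 of the 9 in every comparison too.

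The intervals bound the signal differences of the 9 genes in the comparison where Serpina3n was furthest apart. For loss of mGluR5 in Q111 mice their differences ran from -0.28 to 0.14, and the highest upper end of a 95% interval was 0.41, while Serpina3n stood at 2.45. For loss of mGluR5 in Q20 mice they ran from -0.22 to 0.16, with a highest upper end of 0.39, while Serpina3n stood at 1.11. For the Q111 allele in mice without mGluR5 they ran from -0.31 to 0.24, with a highest upper end of 0.54, while Serpina3n stood at 1.60. For the interaction the highest upper end was 0.69, while Serpina3n stood at 1.34. A rise in signal as large as that of Serpina3n thus lay outside the interval of each of the 9 genes in these 4 comparisons. For Lcn2 nothing is read where Q111 mice with mGluR5 are compared, since it was tested only through their readings. Smaller rises lay inside many of the intervals, so a missed threshold does not show that a gene stayed level. Lcn2, Osmr, Cd44 and Steap4 had medians over the 12 arrays of 5.67, 6.39, 6.63 and 6.78, below the array medians of 7.05 to 7.16. How far such dim probe sets understate a change in RNA was not tested.

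The 9 genes also had no common direction. For loss of mGluR5 in Q111 mice 4 were positive and 5 negative, with a median of -0.0006 beside 0.01 over all tested genes. Lcn2 was among the 5, and its sign there was conditioned by the filter. In Q20 mice 5 of the 9 genes were positive and 4 negative, with a median of 0.05 beside 0.02. For the Q111 allele in mice without mGluR5 3 were positive and 6 negative, with a median of -0.10 beside -0.02. The range of their group means was 0.12 to 0.35 per gene, and that of Serpina3n was 2.71. Of the 9 genes, 8 had groups whose neighbours in order of their means all overlapped, the exception being Cp. The share of all tested genes with such overlap was not counted, so nothing is read from this.

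**Figure D2:**
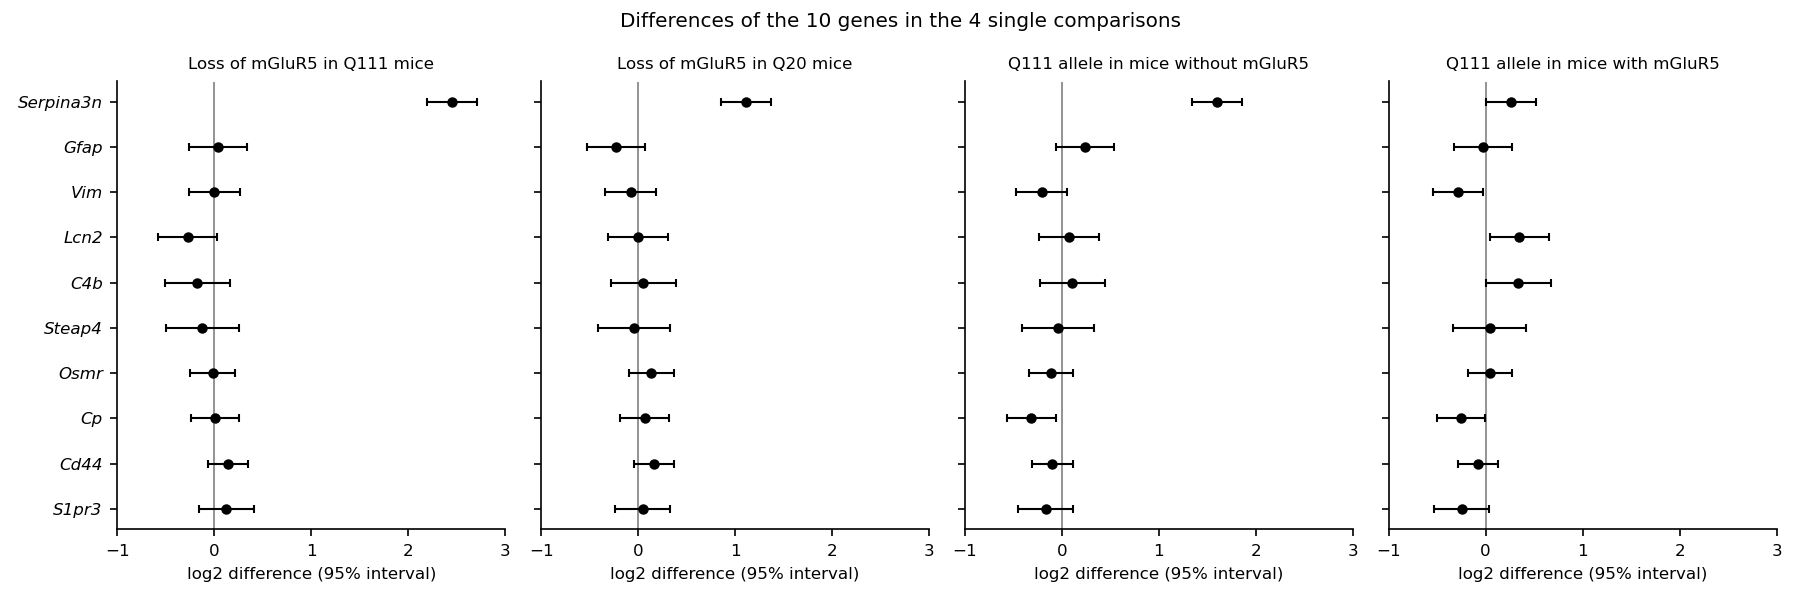
Log2 differences (horizontal axes, tested genotype minus its control, points) with 95% intervals (bars) of the 10 genes for loss of mGluR5 in Q111 and in Q20 mice and for the Q111 allele in mice without and with mGluR5, from a fit over all 12 arrays. Serpina3n stands at 2.45, 1.11, 1.60 and 0.26 in the 4 panels, and no interval of the other 9 genes reaches above 0.67.

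The intermediate filaments were described first. Gfap, the glial fibrillary acidic protein and the usual marker of reactive astrocytes, read 8.84, 8.87 and 8.52 in Q111 mice without mGluR5 and 8.58, 8.91 and 8.63 in Q111 mice with mGluR5. It read 8.33, 8.63 and 8.58 in Q20 mice without mGluR5, against 9.01, 8.66 and 8.53 in Q20 mice with mGluR5. All 4 groups overlapped. The difference for loss of mGluR5 was 0.04 ± 0.14 in Q111 mice, with a 95% interval of -0.26 to 0.34, and -0.22 ± 0.14 in Q20 mice, with an interval of -0.52 to 0.08. Neither passed the test (limma adjusted p = 0.9999 and 0.955). For the Q111 allele the difference was 0.24 ± 0.14 in mice without mGluR5 and -0.03 ± 0.14 in mice with it. These also missed the threshold (limma adjusted p = 0.659 and 0.9993), while a limma fit with array weights called the first (adjusted p = 0.0456).

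Vim, the vimentin filament of immature and reactive astrocytes and of vessel walls, read 9.46, 9.37 and 9.44 in Q111 mice without mGluR5 and 9.21, 9.62 and 9.43 in Q111 mice with mGluR5. It read 9.53, 9.73 and 9.64 in Q20 mice without mGluR5, against 9.86, 9.81 and 9.45 in Q20 mice with mGluR5. Among mice without mGluR5 the 3 Q111 arrays lay below the 3 Q20 arrays, as did those of 13% of all tested genes, and the difference of -0.21 ± 0.12 missed the threshold (limma adjusted p = 0.657). The average difference of the allele was -0.25 ± 0.09 (limma adjusted p = 0.261). Loss of mGluR5 came with a difference of -0.0006 ± 0.12 in Q111 mice.

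Among receptors, Cd44, the surface receptor for hyaluronan, had the smallest p of the 9 genes for the average loss of mGluR5. It read 6.48, 6.79 and 6.64 in Q111 mice without mGluR5 and 6.47, 6.52 and 6.51 in Q111 mice with mGluR5. It read 6.74, 6.77 and 6.69 in Q20 mice without mGluR5, against 6.63, 6.64 and 6.44 in Q20 mice with mGluR5. The Q111 groups overlapped, and the Q20 groups did not, as was so in the same direction for 7.89% of all tested genes. The average difference for loss of mGluR5 was 0.15 ± 0.07, with an interval of 0.00 to 0.29, and missed the threshold (limma adjusted p = 0.931). The highest reading of Cd44 was that of replicate 2 in all 4 groups, the array with the widest spread of values in each, and the part of that spread in the result was not tested.

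Osmr, the oncostatin M receptor that pairs with gp130, ranged from 6.16 to 6.64 over the 12 arrays, and its differences for loss of mGluR5 were -0.02 ± 0.11 in Q111 mice and 0.14 ± 0.11 in Q20 mice. S1pr3, a receptor for sphingosine-1-phosphate, read 7.34, 7.27 and 7.48 in Q111 mice without mGluR5 and 7.18, 7.26 and 7.27 in Q111 mice with mGluR5. It read 7.58, 7.18 and 7.83 in Q20 mice without mGluR5, against 7.50, 7.57 and 7.37 in Q20 mice with mGluR5. Among mice with mGluR5 the Q111 arrays of S1pr3 lay below the Q20 arrays, as did those of 5.3% of all tested genes, while among mice without it they overlapped. Its average difference for the allele was -0.21 ± 0.09 (limma adjusted p = 0.423).

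Lcn2, the secreted iron-carrier protein lipocalin 2 and one of the strongest induced genes of astrocytes in inflamed mouse brain, was near the background of the arrays. Its probe set exceeded the 25th percentile of its array in 1 of 3 arrays of Q111 mice without mGluR5, in 3 of 3 of Q111 mice with mGluR5, and in 0 of 3 of either Q20 group. It read 5.60, 5.48 and 5.95 in Q111 mice without mGluR5 and 5.87, 5.85 and 6.14 in Q111 mice with mGluR5. It read 5.56, 5.58 and 5.66 in Q20 mice without mGluR5, against 5.83, 5.29 and 5.68 in Q20 mice with mGluR5. The highest group mean was thus that of Q111 mice with mGluR5, a group whose Serpina3n readings overlapped those of Q20 mice with mGluR5. Lcn2 entered the tested genes only through this group, so its separation and its test there were conditioned by the filter and support nothing. Among mice with mGluR5 the Q111 arrays lay above the Q20 arrays, as did those of 4.39% of all tested genes, and the difference of 0.35 ± 0.14 missed the threshold (limma adjusted p = 0.605). In Q111 mice the difference for loss of mGluR5 was -0.28 ± 0.14. That comparison also uses the group through which Lcn2 entered the tested genes, so its negative sign supports nothing either. Because most of these readings lie at the dim end of the array, the size of any change of Lcn2 is uncertain.

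C4b, the complement component that reactive astrocytes and diseased oligodendrocytes share with Serpina3n, read 8.18, 8.03 and 7.68 in Q111 mice without mGluR5 and 7.94, 8.45 and 8.03 in Q111 mice with mGluR5. It read 8.07, 7.93 and 7.57 in Q20 mice without mGluR5, against 7.90, 7.77 and 7.74 in Q20 mice with mGluR5. The Q111 arrays lay above the Q20 arrays among mice with mGluR5, as did those of 4.39% of all tested genes, while the groups of the other single comparisons overlapped. The difference of the allele there was 0.34 ± 0.16 (limma adjusted p = 0.721), and that for loss of mGluR5 in Q111 mice was -0.18 ± 0.16. C4b has a near-identical neighbour, C4a, and what the probes take from each was not tested.

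Cp encodes ceruloplasmin, the copper protein that oxidises iron for its export from astrocytes. It read 6.89, 6.90 and 6.79 in Q111 mice without mGluR5 and 6.68, 6.98 and 6.90 in Q111 mice with mGluR5. It read 7.27, 7.25 and 7.01 in Q20 mice without mGluR5, against 7.05, 7.34 and 6.94 in Q20 mice with mGluR5. The 3 Q111 arrays lay below the 3 Q20 arrays among mice without mGluR5, as did those of 13% of all tested genes, and those among mice with mGluR5 overlapped. The average difference of the allele, -0.28 ± 0.08, had the smallest p of the 9 genes in the 7 comparisons and missed the threshold (limma adjusted p = 0.142). With the replicate number as a block Cp passed (limma adjusted p = 0.0399), and leaving out single arrays gave -0.33 to -0.23 with none called. Loss of mGluR5 came with 0.01 ± 0.12 in Q111 mice and 0.07 ± 0.12 in Q20 mice.

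Steap4, a membrane metalloreductase for iron and copper that inflammatory cytokines induce, ranged from 6.43 to 7.15 over the 12 arrays. Its lowest reading was that of replicate 2 in all 4 groups. Loss of mGluR5 came with -0.12 ± 0.18 in Q111 mice and -0.04 ± 0.18 in Q20 mice.

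Among these genes other than the dim Lcn2, the largest folds in the 7 comparisons were 1.26 upward, for C4b with the Q111 allele in mice with mGluR5, and 1.24 downward, for Cp with the allele in mice without mGluR5. Both fall short of the 1.5-fold that the authors set as their own minimum.

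The likeness of each gene to Serpina3n was measured as Pearson's r over the 12 arrays, which share their groups of 3 and, for Serpina3n, take most of their spread from Q111 mice without mGluR5. Over all tested genes r had a median of 0.008, with 5th and 95th percentiles of -0.460 and 0.466. The 9 reactive genes lay between -0.35 for Vim and 0.35 for Cd44, with a median of -0.09, inside that range. The most similar genes were Trappc2l, a subunit of a complex that tethers transport vesicles, with r of 0.944, and Stk10, a kinase of lymphocyte migration, with 0.934. Next came Rps20, a protein of the small ribosomal subunit, Atp5g1, a subunit of mitochondrial ATP synthase, and Siglech, a lectin of microglia, with 0.933, 0.927 and 0.920. Trappc2l read 10.34, 10.24 and 10.26 in Q111 mice without mGluR5 and 9.40, 9.42 and 9.27 in Q111 mice with mGluR5. It read 9.37, 9.77 and 9.26 in Q20 mice without mGluR5, against 9.35, 9.32 and 9.33 in Q20 mice with mGluR5. Trappc2l stood apart in the mice with both changes, and lacked the clear separation of Q20 mice by mGluR5 that Serpina3n had. The genes named as most and least similar were picked as extremes of r in these same arrays. That choice favours such patterns, so nothing is read from them. The least similar were Mcmdc2 with -0.936, Acvrl1, a receptor of the BMP family in endothelial cells, with -0.925, and Unc80, a subunit of a neuronal sodium leak channel, with -0.916. Acvrl1 averaged 7.33 ± 0.12 in Q111 mice without mGluR5 and 8.48 ± 0.10 in Q111 mice with mGluR5, and 8.49 ± 0.07 in Q20 mice without mGluR5 and 8.56 ± 0.05 in Q20 mice with mGluR5 (SD, n = 3 each).

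**Figure D3:**
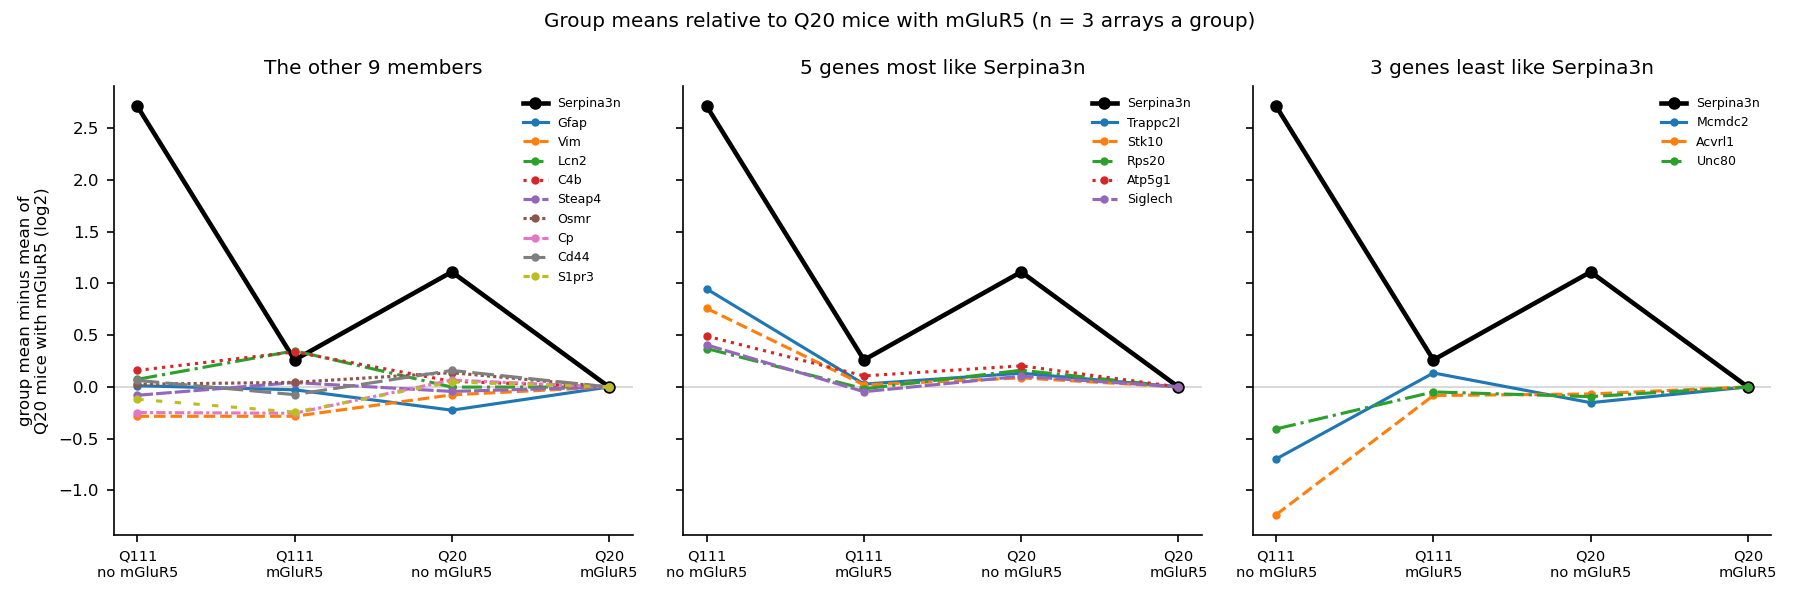
Group means minus the mean of Q20 mice with mGluR5 (vertical axes, log2, n = 3 arrays per mean) for Serpina3n (black, in each panel) with the other 9 reactive astrocyte genes, with the 5 genes most similar to it over the 12 arrays and with the 3 least similar. Serpina3n reaches 2.71 in Q111 mice without mGluR5, and the 9 reactive genes stay near 0 in every group.

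The position of the gene was looked at next. Serpina3n lies at chr12:104406646-104414334 on GRCm38.p6 (RefSeq), in a cluster of serpin A genes. Among the 5 tested genes on either side (Serpina10, Serpina1d, Serpina11, Serpina9 and Serpina3b on one, and Gsc, Dicer1, Clmn, Syne3 and 1 predicted gene on the other), limma called 0 of 10 in any of the 7 comparisons, with at most 1 at an unadjusted p below 0.05. Their differences for loss of mGluR5 ran from -0.06 to 0.30 in Q111 mice and from -0.32 to 0.11 in Q20 mice. Of the 11 serpin A3 genes listed, 3 had a probe set with a single symbol. Serpina3b averaged 5.91 ± 0.19 in Q111 mice without mGluR5 and 5.76 ± 0.33 in Q111 mice with mGluR5, and 5.71 ± 0.18 in Q20 mice without mGluR5 and 5.81 ± 0.06 in Q20 mice with mGluR5 (SD, n = 3 each). Serpina3a, with group means of 5.51 to 5.63, was too dim to be tested. The other 8 paralogues were not analysed here, and how far the Serpina3n probes also bind their RNA was not tested.

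Promoter sequence was read for the genes from RefSeq windows on GRCm38.p6 of the 250 bases before a gene's start, and 9 of the 10 genes had one, the exception being C4b, with 10 windows in all. Both strands were searched for TTCNNNGAA, the palindrome that STAT factors bind, and for TTGCNNAA, read as TTNNGCAA on the other strand, a form that C/EBP factors bind. The windows shown are that of Serpina3n, the gene with the widest range of group means of the 10, which holds neither motif, and that of Steap4, which holds both and did not pass the test. Serpina3n is given at chr12:104406458-104406645 and Steap4 at chr5:7960222-7960471, both on the plus strand and 5′ to 3′, with matches in capitals. The Serpina3n window is cut at the gene's first annotated base.

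Serpina3n: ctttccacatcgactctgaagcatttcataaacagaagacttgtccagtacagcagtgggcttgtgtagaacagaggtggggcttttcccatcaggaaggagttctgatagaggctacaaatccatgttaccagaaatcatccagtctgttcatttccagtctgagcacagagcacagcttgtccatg

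Steap4: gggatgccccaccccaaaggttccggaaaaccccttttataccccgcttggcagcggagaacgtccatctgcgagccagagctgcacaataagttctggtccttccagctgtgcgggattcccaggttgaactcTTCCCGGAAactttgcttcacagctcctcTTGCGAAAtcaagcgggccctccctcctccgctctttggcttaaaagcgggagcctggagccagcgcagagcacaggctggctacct

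Counted back from the base before the start as -1, the STAT form of Steap4 lies at -116 to -108 and the C/EBP form at -87 to -80. The STAT form was found in 1 of the 10 windows, against 7.02% of all 32851 windows. The C/EBP form was found in 3 of the 10, those of Lcn2, Cp and Steap4, against 9.56% of all windows. A match is only a run of letters, and its absence from a window says nothing of a factor's binding.

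Genes around the 9 were counted from lists of known members. The list of genes induced in reactive astrocytes by both inflammation and ischaemia holds 4 more genes, Timp1, Hspb1, Cxcl10 and Aspg, and limma called 0 of these in any comparison, with at most 1 at an unadjusted p below 0.05. Timp1, an inhibitor of metalloproteinases, differed by 0.14 ± 0.13 for loss of mGluR5 in Q111 mice and by 0.04 ± 0.13 in Q20 mice. Of the genes induced mainly by inflammation, 6 of 13 were tested, and of those induced mainly by ischaemia, 11 of 13. Limma called 0 of either in any comparison. At an unadjusted p below 0.05 the inflammation list had 0 of 6 for loss of mGluR5 in Q111 mice and 2 of 6 in Q20 mice, and the ischaemia list had 1 of 11 and 0 of 11. Fbln5, an elastic fibre protein, and Psmb8, an immunoproteasome subunit, had the smallest p for the average loss on the first list, with -0.20 ± 0.07 and 0.16 ± 0.07 (limma adjusted p = 0.524 and 0.931).

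The gp130 cytokines, their receptors and the STAT3 pathway had 21 of 26 genes tested, and limma called 0 in any of the 7 comparisons, with 0 to 2 at an unadjusted p below 0.05. For loss of mGluR5 in Q111 mice 8 were positive and 13 negative, with a median of -0.02, and in Q20 mice 13 were positive and 8 negative, with a median of 0.03. The genes with the smallest p for the average loss were Junb, an early-response transcription factor, at -0.20 ± 0.08, and Il6ra, the interleukin 6 receptor chain, at 0.13 ± 0.07 (limma adjusted p = 0.762 and 0.9998).

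The complement list had 12 of 16 genes tested and 1 call. At an unadjusted p below 0.05 there were 0 of 12 for loss of mGluR5 in Q111 mice and 3 in Q20 mice. The shares of all tested genes were 4.36% and 6.02%. For the Q111 allele there were 4 in mice without mGluR5 and 3 in mice with it, beside 9.44% and 6.84% of all tested genes. C3ar1, the receptor for the complement fragment C3a that microglia carry, read 7.79, 7.62 and 7.42 in Q20 mice without mGluR5, against 6.94, 7.03 and 7.08 in Q20 mice with mGluR5. It rose by 0.59 ± 0.11 (limma adjusted p = 0.0258). In Q111 mice it read 7.25, 7.13 and 7.19 without mGluR5, against 7.31, 7.43 and 7.12 with mGluR5, and these overlapped. C3ar1 was therefore highest in Q20 mice without mGluR5, a group where Serpina3n took the second place. The call was lost in 7 of 24 alternatives, with adjusted p up to 0.188, among them leaving out any 1 array of the Q20 mice with mGluR5, or replicate 1 or 2 of those without it, with adjusted p of at least 0.0867. Of the microglial markers 12 of 14 were positive in that comparison, with a median of 0.18 beside 0.02 over all tested genes, and limma called 0, with 2 at an unadjusted p below 0.05. Their mean per array was 8.35 to 8.62 in Q20 mice without mGluR5, against 8.32 to 8.39 in Q20 mice with mGluR5, and their part in the result was not tested.

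Iron and copper handling had 13 of 15 genes tested, intermediate filaments 9 of 9 and sphingosine-1-phosphate signalling 10 of 10, and limma called 0 of each in any comparison, with 0 to 3 of each at an unadjusted p below 0.05. The smallest p for the average loss on the iron list was that of Slc40a1, the iron exporter ferroportin, at 0.23 ± 0.07 (limma adjusted p = 0.417). On the filament list it was that of Ina, a neuronal filament, at -0.12 ± 0.07, and on the sphingosine-1-phosphate list that of S1pr2 at 0.19 ± 0.10 (limma adjusted p = 0.9998 each).

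A list of genes named in diseased oligodendrocytes, Serpina3n and C4b among them, had 6 of 7 genes tested. For the Q111 allele in mice without mGluR5 3 were positive and 3 negative, with a median of -0.03 beside -0.02 over all tested genes. In mice with mGluR5 all 6 were positive, with a median of 0.18 beside -0.01. These counts and medians include Serpina3n, which was chosen for its levels, so they are a description only. Serpina3n is given no test, and of the other genes limma called Klk6 alone in these comparisons. Il33, a nuclear cytokine, differed by -0.32 ± 0.12 in mice without mGluR5 (limma adjusted p = 0.364). Klk6, a secreted protease of oligodendrocytes, rose with the Q111 allele. It read 8.61, 8.77 and 8.68 in Q111 mice without mGluR5 and 8.30, 8.82 and 8.52 in Q111 mice with mGluR5. It read 7.34, 7.82 and 7.86 in Q20 mice without mGluR5, against 7.88, 7.62 and 7.99 in Q20 mice with mGluR5. All 6 Q111 arrays lay above all 6 Q20 arrays, as did those of 0.437% of all tested genes. The average rise with the allele was 0.87 ± 0.11 (limma adjusted p = 0.000425), and it was called under each of the 23 alternatives that gave an adjusted p. The rise was 1.01 ± 0.15 in mice without mGluR5 (limma adjusted p = 0.00294), a call lost in the unmoderated model alone (adjusted p = 0.0683). It was 0.72 ± 0.15 in mice with mGluR5 (limma adjusted p = 0.0471), a call lost in 13 of 24 alternatives, with adjusted p up to 0.27, 9 of them leaving out single arrays. Loss of mGluR5 came with 0.14 ± 0.15 in Q111 mice and -0.15 ± 0.15 in Q20 mice (limma adjusted p = 0.9999 and 0.998). Klk6 thus shared with Serpina3n a higher level with the Q111 allele in mice without mGluR5. Unlike Serpina3n, whose arrays overlapped there, Klk6 also lay apart by allele in mice with mGluR5, and it had no called difference by mGluR5. The interaction of Klk6 was 0.29 ± 0.21 (limma adjusted p = 0.9999), and that of Serpina3n was 1.34 ± 0.17. Oligodendrocyte markers had 15 genes tested, of which 9 were positive for the allele in mice without mGluR5 and 11 in mice with it, with medians of 0.09 and 0.04. Their part in the result was not tested.

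General markers of astrocytes were counted as well. For loss of mGluR5 in Q111 mice 5 of 20 were positive and 15 negative, with a median of -0.06, and in Q20 mice 14 were positive and 6 negative, with a median of 0.04. Limma called 0 in these 2 comparisons, with 1 and 0 at an unadjusted p below 0.05. Their mean per array was 10.07 to 10.15 in Q111 mice without mGluR5, 10.11 to 10.27 in Q111 mice with mGluR5, 10.11 to 10.27 in Q20 mice without mGluR5 and 10.10 to 10.14 in Q20 mice with mGluR5. The 1 call on the list was Kcnj10, the potassium channel Kir4.1 of astrocytes, which was higher with the Q111 allele on average by 0.35 ± 0.06 (limma adjusted p = 0.0111). For that average 9 of the 20 markers were positive and 11 negative, with a median of -0.04 beside -0.02 over all tested genes. At an unadjusted p below 0.05 there were 5 of 20, beside 11.4% of all tested genes. Kcnj10 averaged 10.02 ± 0.04 in Q111 mice without mGluR5 and 9.69 ± 0.08 in Q20 mice without mGluR5, and 10.13 ± 0.10 in Q111 mice with mGluR5 and 9.76 ± 0.08 in Q20 mice with mGluR5 (SD, n = 3 each). Of the 23 alternatives that gave an adjusted p, its call was lost in 1, without replicate 2 of every group (limma adjusted p = 0.0657). The call was also lost under the authors' criteria, whose minimum is 1.5-fold.

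The vascular markers had mostly negative differences for the allele. Of 15 tested, 14 were negative for the Q111 allele in mice without mGluR5 and 13 in mice with it. The medians were -0.23 and -0.19 beside -0.02 and -0.01 over all tested genes, while limma called 1 and 0. At an unadjusted p below 0.05 there were 8 and 2 of 15, beside 9.44% and 6.84% of all tested genes, in these 2 comparisons. The 1 called was Abcc9, a potassium channel subunit of pericytes, which fell by 0.46 ± 0.08 in the first of these (limma adjusted p = 0.0109), a call lost without replicate 1 of the Q20 mice or replicate 1 or 3 of the Q111 mice (adjusted p = 0.0551, 0.0795 and 0.0559). For loss of mGluR5 in Q20 mice Abcc9 rose by 0.46 ± 0.08 (limma adjusted p = 0.0203). That call was lost in 7 of the 24 alternatives that gave an adjusted p, 6 of them leaving out single arrays of those groups. Both calls of Abcc9 were also lost under the authors' criteria, whose minimum is 1.5-fold. Abcc9 read 6.82, 6.98 and 6.87 in Q111 mice without mGluR5, against 7.33, 7.36 and 7.37 in Q20 mice without mGluR5 and 6.85, 6.87 and 6.96 in Q20 mice with mGluR5. Vim, which vessel walls also contain, had the negative differences for the allele given above, and the part of the vascular markers in them was not tested.

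**Figure D4:**
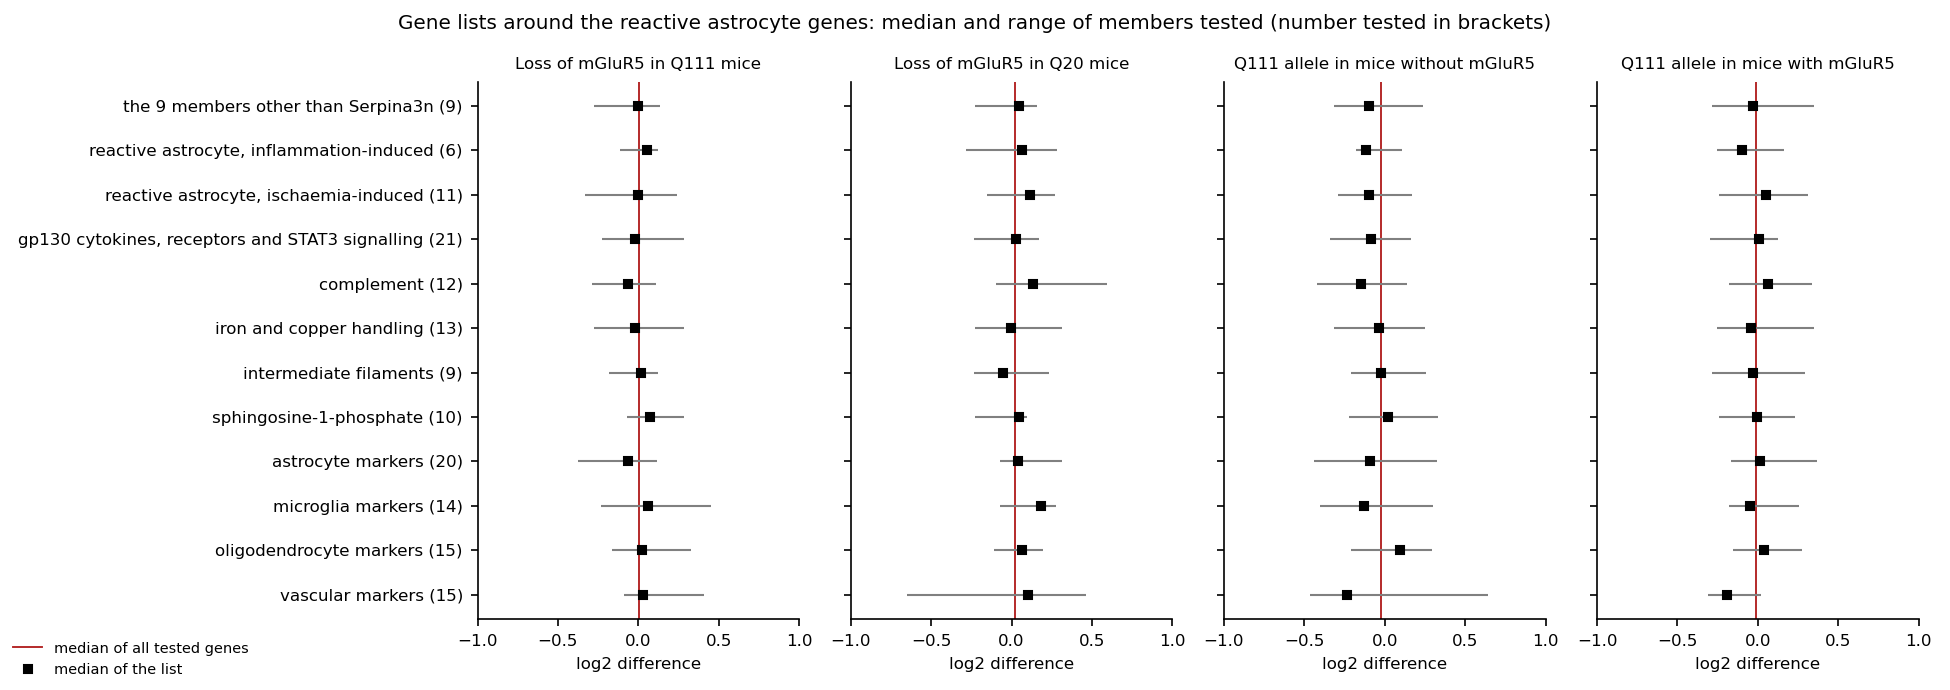
Median (squares) and range (lines) of the log2 differences (horizontal axes) of the tested genes of the 12 plotted groups of genes in 4 comparisons, with the median of all 16721 tested genes as a vertical line. The plotted medians lie between -0.23, that of the vascular markers for the Q111 allele without mGluR5, and 0.18, that of the microglial markers for loss of mGluR5 in Q20 mice.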

How the data were processed

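Total RNA of dissected striatum was isolated with Trizol and labelled as biotinylated single-stranded cDNA for Affymetrix whole-transcript arrays, per the labels' protocols. The authors deposited 1 table of log2 signals for 35556 probe sets in 12 arrays, made with Partek and RMA per the submitters' processing notes, with Partek Genomics Suite 6.5 named in the series description. RMA subtracts background, forces the probe values of all arrays to one distribution and summarises probes by median polish. An array-wide shift in RNA would thus not be visible. The deposited probe-set values still differed in spread, with interquartile ranges of 2.56 to 2.95. The genome build used for the probe sets was not given in the sources used here.

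Platform annotation gave 1 symbol for 21789 probe sets, several for 1621 and none for 12146. Symbols were updated to RefSeq on GRCm38.p6, in which 91 named sets had no match. A gene was represented by its brightest set, and the 16721 genes above the 25th percentile of their array in at least 3 arrays were tested. Limma 3.58.1 in R 4.3.3 fitted 1 mean per group over the 12 arrays, which left 8 residual degrees of freedom beside a prior of 6.88. Two-sided p-values were adjusted by Benjamini and Hochberg's method across the tested genes. The 7 comparisons were loss of mGluR5 in Q111 and in Q20 mice, the Q111 allele without and with mGluR5, both averages and the interaction. The 4 single comparisons share groups with each other. The fit was tested on simulated data. Precision is limited by having 3 arrays per group. Plotting used matplotlib 3.10.9 under Python 3.11.15.

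The genes, the lists and the tests were chosen with earlier results of these data known. Named were the 10 genes, Grm5 and Htt, serpin A3 paralogues, 5 tested genes on each side of Serpina3n, the 5 genes most and the 3 least similar to it, and of each list the called genes and examples from the 2 with the smallest p for the average loss of mGluR5. The lists also covered choroid plexus, ependymal and blood markers, of which 0 of 8, 0 of 6 and 0 of 2 tested genes were called by limma in any comparison, with at most 2, 0 and 1 at an unadjusted p below 0.05. Alternatives changed the model, the scaling, the filter, the choice of probe set and the arrays. The fit with each array's interquartile range as a covariate and that without replicate 2 of every group were added after the data were seen. Replicate numbers were not taken as pairs, and no 2 arrays had the same values in more than 0.084% of genes.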

Additional observations from a re-analysis of the deposited data

Results flagged for a closer look

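The difference of Serpina3n between Htt genotypes is given here because the gene was picked for its levels, and not because it met a rule. The interaction of Serpina3n ranked 11 of 16721 genes by size of rise. Its higher level without mGluR5 was larger in Q111 mice (2.45 ± 0.12) than in Q20 mice (1.11 ± 0.12), and the difference between these, the interaction, was 1.34 ± 0.17 (SE from limma, 3 arrays a group). The gene was chosen for its levels in these arrays, so no test is given for it. For the other 9 genes the upper end of the 95% interval of the interaction was at most 0.69. With 3 arrays a group, no gene was examined for single outlying arrays.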

How the results depend on the processing

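With single arrays left out in turn, 0 of the 9 genes were called in any comparison. Among all genes, the counts called then ran from 28 to 52 for loss of mGluR5 in Q111 mice, 25 to 97 for its loss in Q20 mice and 29 to 60 for the average loss. They ran from 74 to 232 for the Q111 allele without mGluR5, 44 to 128 with it, 119 to 511 on average and 34 to 69 for the interaction. In the order loss in Q111 mice, loss in Q20 mice, allele without mGluR5, allele with mGluR5, average loss, average allele and interaction, the main counts were 46, 50, 148, 96, 49, 221 and 73. An unmoderated model gave 23, 19, 91, 35, 23, 123 and 19, array weights gave 346, 384, 942, 968, 376, 1900 and 326, and the interquartile range as a covariate gave 150, 213, 353, 266, 170, 488 and 153. The replicate block gave 103, 129, 343, 204, 79 and 487 for the first 6. Other counts that moved by more than 1.5 times were 84 with an intensity trend and 76 with quantile normalization for loss in Q20 mice, and 47 for the allele with mGluR5 on only the groups compared. All probe sets gave 261, 218 and 461 for the allele without mGluR5, with it and on average. The authors' criteria gave 165 for the interaction, 17 for the average loss and 51 for the average allele, and leaving out replicate 2 of every group gave 47 for the interaction. The cause of these moves was not tested.

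Of the 9 genes, array weights called 2 for the allele without mGluR5, Gfap at 0.38 ± 0.11 (adjusted p = 0.0456) and Cp at -0.35 (0.0403). They called 3 for the average allele, Vim at -0.24 (0.0366), Cp at -0.34 (0.0058) and S1pr3 at -0.24 (0.0382). The replicate block called 1, Cp for the average allele at -0.28 (0.0399). No alternative called any of the 9 for loss of mGluR5 or for the interaction. The replicate numbers shared no stated source. Same-numbered arrays of different groups deviated with r of -0.144 to 0.567 and a median of 0.28. Different-numbered arrays had r of -0.555 to 0.449 and a median of -0.085. Of the 12 arrays, 9 correlated best with their own number, and the main fit took no account of the number. The block changed no other call of the 9 genes. The interaction of Serpina3n was 1.24 to 1.55, highest without replicate 2 of every group, and no difference of it changed sign. Of 1514 differences of the 9 genes uncalled in both fits, 79 had the opposite sign.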

Other observations

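Within groups, the reactive astrocyte genes varied with the arrays in ways that differed from gene to gene. Replicate 2, the array with the widest interquartile range in all 4 groups, was the highest of its group for Cd44 in 4 of 4 groups and for Gfap, Osmr, Cp and Serpina3n in 3 of 4. It was the lowest for Steap4 in 4 of 4 groups and for Lcn2 in 3 of 4. Deviations from the group mean over the 12 arrays, given as a description, were opposed for Serpina3n and Steap4 (r of -0.849) and for Serpina3n and S1pr3 (-0.794). They ran together for Osmr and Cd44 (0.714), Gfap and Vim (0.699) and Lcn2 and Steap4 (0.684). These pairs were picked as extremes after the values were seen, and the part of array quality in them was not tested.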
